A study of Mus musculus with 24 samples.

Results

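Neural progenitor cells (NPC) carrying a Htt allele with 111 CAG repeats, called Q111, were compared with wild-type (WT) NPC. The comparison used the columns of the NPC expression table labelled Q111 and WT, which gave 2 libraries of each genotype, 4 of the 24 libraries of the series. Q111 NPC came from a mouse embryonic stem cell (mESC) line that was heterozygous for a knock-in of the repeat at the Hdh locus, the older name of Htt, so a normal allele was present as well. WT NPC carried no knock-in, and the labels do not say from which line they came. Both were differentiated in adherent culture in N2B27 medium and then kept on laminin in NS medium with FGF and EGF, after the mESC had been grown on irradiated fibroblast feeders with leukemia inhibitory factor. The labels name no second line for any repeat length, so the repeat and any other difference between the lines cannot be told apart. The series text calls the replicates biological samples but does not say whether they came from separate differentiations, so the spread between them may be in part technical. The other 8 NPC libraries, 2 each of a Htt knockout (KO) and of heterozygous lines with 20, 50 and 92 repeats by the sample titles (Q20, Q50 and Q92), entered the estimate of spread.

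Htt encodes huntingtin, a large scaffold protein of vesicle transport and of other processes, and a long CAG repeat in its first exon, translated as polyglutamine, causes Huntington's disease. NPC kept in FGF and EGF resemble radial glia: they divide, express Nes, Vim and Fabp7, and can form neurons, astrocytes and oligodendrocytes. Their identity is held by Notch, FGF and BMP signals and by transcription factors that mark the position along the neural tube, Hox genes behind the midbrain and Otx genes in front of it. The series title concerns splicing; the tables used here hold levels per gene.

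Values are normalised CPM (counted reads scaled to a common library size), and a log2 difference is Q111 minus WT on the log2(CPM + 1) scale, which understates the difference of genes with low values. Genes with at least 1 CPM in at least 2 NPC libraries were tested with limma, and calls were made where p, adjusted by Benjamini and Hochberg's method over all tested genes, was below 0.05. The WT libraries held 55557667 and 84575732 counted reads and the Q111 libraries 76985911 and 73958639. The WT libraries stood further apart than any other NPC pair. Their log2 replicate difference had an SD of 0.869 over genes, with 2443 of 13206 genes at least 2-fold apart, against 0.486 and 545 genes in Q111. WT replicate 1 was low in genes of DNA replication, whose median was 1.78 lower on the log2 scale than in WT replicate 2, and high in astrocyte genes, whose median was 0.85 higher. Results are therefore also given against each WT library alone where this matters.

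The label NPC was checked against cell type markers. The 10 progenitor markers in the table summed to 7203 and 6580 CPM in WT and to 5292 and 5630 in Q111. Sox2 and Olig1 were not analysed here. The 7 neuron markers summed to 1628 and 1255 CPM in WT and to 769 and 747 in Q111, most of it Map2. The 5 astrocyte markers summed to 717 and 168 in WT and to 182 and 176 in Q111. The 5 markers of the oligodendrocyte lineage in the table summed to 733 and 292 in WT and to 364 and 796 in Q111. Markers of these lineages were thus read as well, and their sums were uneven between replicates. The stem cell markers summed to between 1.38 and 5.57 CPM in the 4 libraries, with Pou5f1 and Tdgf1 under 1 in all of them. The 4 microglia and blood markers were each under 1 in every library. The 6 fibroblast markers summed to 30.1 and 26.8 CPM in WT and to 2.64 and 2.45 in Q111; Col3a1 gave 23.96 and 21.8 of the WT sums and 1.31 and 1.28 of the Q111 sums, with Col1a1, Col1a2 and Dcn under 1 throughout. In bulk RNA, fewer cells of a type and less RNA per cell cannot be told apart, and the part of the cell makeup in the results below was not tested beyond these values.

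Htt itself was at 137 and 177 in WT and 137 and 150.2 in Q111. The groups overlapped, and the log2 difference was -0.12 (SE 0.14, adjusted p = 0.57, limma). The count covers both alleles together. In mESC the difference was -0.31, also not called.

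Q111 and WT NPC differed at 2197 of 13206 genes, 16.6% of those tested: 1154 genes (8.74%) were higher in Q111 and 1043 (7.9%) lower. At an unadjusted p under 0.05 there were 4505 genes. The groups did not overlap at 8015 genes (60.7%), so non-overlap alone says little. The calls rest on a spread estimated over all 12 NPC libraries. Fitted on the 4 libraries alone, no gene was called, the smallest adjusted p was 0.0525 and 2653 genes had an unadjusted p under 0.05. The number of calls was 1315 without WT replicate 1, 5085 without WT replicate 2, 558 without Q111 replicate 1 and 554 without Q111 replicate 2. Of the 2197 calls, 1038 (7.86% of the tested genes) were also made with either WT library left out, 575 of them higher (4.35%) and 463 lower (3.51%). With any of the 4 left out in turn, 430 calls held (3.26%), 255 higher (1.93%) and 175 lower (1.33%).

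The clearest differences were genes expressed in 1 of the 2 genotypes compared and near background in the other. After the values were seen, genes under 1 CPM in both libraries of a group and at 10 CPM or more in both of the other were collected. There were 27, of which 15 were expressed in Q111 and 12 in WT. Since the choice fixes their difference, the set is given as a description, and any p beside its members comes from the fit over all genes.

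**Figure D1:**
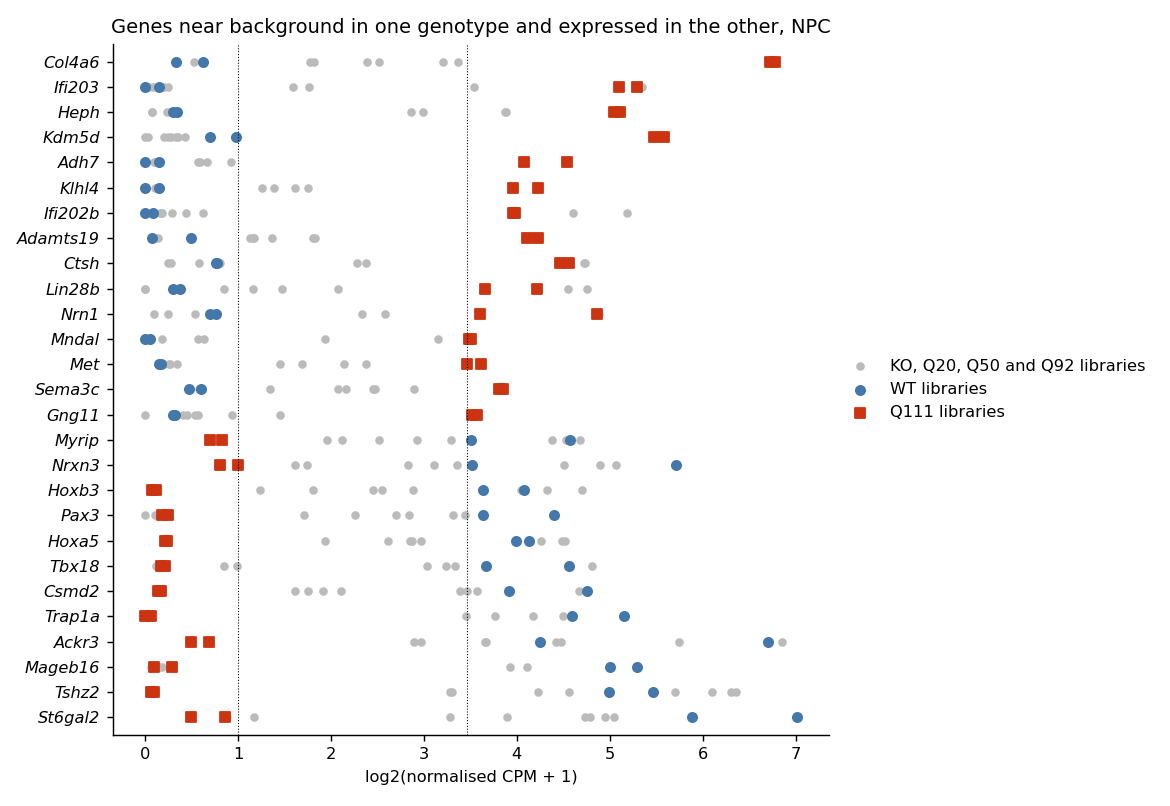
Log2(normalised CPM + 1) of 27 genes in the 12 NPC libraries; blue circles are the 2 WT libraries, red squares the 2 Q111 libraries and grey circles the 8 libraries of the KO, Q20, Q50 and Q92 lines. The dotted lines mark 1 and 10 CPM, and the top 15 genes lie right of the second line in Q111 and left of the first in WT. The other lines fall on both sides or between them for most genes.

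Col4a6, a chain of basement membrane collagen IV, stood at 0.543 and 0.258 in WT and 105 and 109 in Q111, a log2 difference of 6.27, SE 0.17, limma adjusted p = 1.8e-06. Heph, the copper oxidase hephaestin that acts in iron export, stood at 0.228 and 0.27 in WT and 32.1 and 33.4 in Q111 (4.76, SE 0.14, limma adjusted p = 1.8e-06). Klhl4, a kelch-repeat gene, stood at 0 and 0.11 in WT and 14.6 and 17.8 in Q111 (4.02, SE 0.14, limma adjusted p = 4.2e-06). All of these lie on the X chromosome. Kdm5d, a histone H3K4 demethylase on the Y chromosome, stood at 0.963 and 0.626 in WT and 43.6 and 46.8 in Q111 (4.69, SE 0.14, limma adjusted p = 1.8e-06). It was under 1 CPM in all 10 other NPC libraries, whereas its neighbours on the Y were read in WT too: Ddx3y was at 61.0 and 50.5 in WT and 56.9 and 72.1 in Q111, and Uty at 46.8 and 26.9 against 40.5 and 44.7. Adh7, a retinol-oxidising alcohol dehydrogenase, was at 0 and 0.11 in WT and 15.9 and 22.2 in Q111 and likewise under 1 in the other lines. Ctsh, the lysosomal protease cathepsin H, was at 0.701 and 0.712 in WT and 22.5 and 21.01 in Q111. The receptor tyrosine kinase gene Met was at 0.123 and 0.11 in WT and 10.1 and 11.2 in Q111, and Lin28b, which blocks let-7 maturation, at 0.228 and 0.295 in WT and 11.6 and 17.6 in Q111. Ifi203, Ifi202b and Mndal, interferon-inducible genes of a cluster on chromosome 1 with near-identical copies, were at 0 and 0.11 in WT and 33.4 and 38.3 in Q111, at 0 and 0.061 in WT and 14.5 and 14.8 in Q111 and at 0.035 and 0 in WT and 10.2 and 10.4 in Q111. How reads were divided between these copies is not known, so the single values are uncertain.

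In the opposite direction, St6gal2, a sialyltransferase, stood at 128 and 57.96 in WT and 0.812 and 0.411 in Q111, the largest log2 fall among the genes with at least 5 CPM in the higher group (-5.77, SE 0.38, limma adjusted p = 8.8e-05). Tshz2, a zinc finger transcription factor, was at 43.3 and 30.9 in WT and 0.041 and 0.071 in Q111 (-5.15, SE 0.23, limma adjusted p = 1.1e-05). Mageb16 and Trap1a, X-linked genes of the MAGE and tumour antigen kind that are mostly silent outside the germ line and early embryo, were at 38.3 and 31.1 in WT and 0.217 and 0.071 in Q111 and at 23.1 and 34.6 in WT and 0.041 and 0 in Q111. Mageb16 was under 1 CPM in Q20, Q50 and Q92 as well and at 14.2 and 16.3 in KO, and Trap1a was under 1 in Q50 and Q92. Ackr3, a scavenging receptor for the chemokine Cxcl12, was at 104 and 18.1 in WT and 0.406 and 0.61 in Q111, with WT replicate 1 well above WT replicate 2. Csmd2, Tbx18 and Pax3 were at 25.96 and 14.04 in WT and 0.122 and 0.099 in Q111, at 11.7 and 22.6 in WT and 0.122 and 0.156 in Q111 and at 20.1 and 11.5 in WT and 0.135 and 0.184 in Q111; Tbx18 and Pax3 are transcription factors of mesenchyme and of the dorsal neural tube. Ackr3 and Pax3 lie on chromosome 1, which is taken up below. No gene of the 15 was at 10 CPM or more in all 4 other lines, and none of the 12 was under 1 CPM in all 4. Of the 15, 6 had at least 1 other line with both libraries at 10 CPM or more, and of the 12, 4 had at least 1 other line with both under 1.

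Of the 27 genes, 5 were on the X chromosome, where 3.5% of the tested genes lie. RefSeq promoters on GRCm38.p6 were found for 19 of the 27, and those of 4 X-linked genes that went in opposite directions are shown, with every CpG in capitals, the dinucleotide at which DNA is methylated. Each is the 250 bases before the annotated start, 5′ to 3′ on the gene's strand. Col4a6 and Klhl4 were on in Q111, and Mageb16 and Trap1a were on in WT.
Col4a6: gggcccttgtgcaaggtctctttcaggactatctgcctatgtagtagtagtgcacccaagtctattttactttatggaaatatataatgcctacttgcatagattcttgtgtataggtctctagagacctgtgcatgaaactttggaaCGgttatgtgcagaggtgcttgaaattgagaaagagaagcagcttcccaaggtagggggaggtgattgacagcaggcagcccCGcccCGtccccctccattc
Klhl4: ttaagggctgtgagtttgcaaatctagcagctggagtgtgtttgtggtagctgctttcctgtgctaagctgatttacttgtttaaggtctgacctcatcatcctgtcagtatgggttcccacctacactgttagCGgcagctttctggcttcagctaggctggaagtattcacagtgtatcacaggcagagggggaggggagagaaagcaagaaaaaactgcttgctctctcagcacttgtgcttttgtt
Mageb16: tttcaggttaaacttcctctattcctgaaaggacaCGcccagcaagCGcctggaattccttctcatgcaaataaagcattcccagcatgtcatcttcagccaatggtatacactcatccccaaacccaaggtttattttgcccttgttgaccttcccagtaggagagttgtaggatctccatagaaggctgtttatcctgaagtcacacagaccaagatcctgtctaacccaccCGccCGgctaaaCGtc
Trap1a: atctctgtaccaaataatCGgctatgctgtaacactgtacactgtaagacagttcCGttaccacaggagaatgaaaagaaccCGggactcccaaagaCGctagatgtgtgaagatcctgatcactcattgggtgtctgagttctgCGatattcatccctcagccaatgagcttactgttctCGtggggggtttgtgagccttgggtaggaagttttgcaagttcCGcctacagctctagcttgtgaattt
The Col4a6 stretch (chrX:141474077-141474326, minus strand) holds 3 CpG and the Klhl4 stretch (chrX:114474083-114474332, plus strand) 1. The Mageb16 stretch (chrX:79671436-79671685, minus strand) holds 5 and the Trap1a stretch (chrX:139333433-139333682, plus strand) 7. CG reads the same on both strands. Among 27025 RefSeq promoters of this length, 38.1% hold 3 or fewer CpG, 19.4% hold 1 or none, 49.5% hold 5 or fewer and 56.6% hold 7 or fewer, so none of the 4 is rich in CpG. Methylation was not measured, and whether it differs here was not tested.

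Apart from these, the largest rises included genes of secreted and signalling proteins. Slc38a4, an imprinted amino acid transporter, went from 1.77 and 8.37 CPM in WT to 172 and 179 in Q111 (5.12, SE 0.66, limma adjusted p = 0.0022). Cx3cl1, the membrane-bound chemokine fractalkine, went from 2.68 and 5.15 to 95.5 and 97.8 (4.36, SE 0.26, limma adjusted p = 4.1e-05). Reln, which encodes the extracellular guidance protein reelin, went from 3.17 and 1.72 to 67.0 and 65.4 (4.32, SE 0.23, limma adjusted p = 2.4e-05). The EGF receptor ligand Areg was at 0.088 and 2.69 in WT and 37.3 and 40.2 in Q111, and Aldh1a3, a retinoic acid synthesis enzyme, at 0.403 and 1.73 in WT and 38.9 and 34.8 in Q111. Every Q111 value of these genes lay above every WT value, which the rule that named them required. Gm27029 was at 3.47 and 0.123 in WT and 67.96 and 75.02 in Q111; it overlaps other genes, its adjusted p was 0.044, and the call was lost without WT replicate 1 and without WT replicate 2. The Q20 line had Reln at 68.7 CPM on average and the Q50 line at 37.3, so high Reln was seen in other knock-in lines too.

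The largest gains in absolute level were in Igfbp3, Kpnb1, Npm1, Eif4a1 and Txn1. Igfbp3, a secreted binding protein of insulin-like growth factors, was at 120.2 and 664 in WT and 2622 and 2672 in Q111; it was called without either WT library, at a log2 difference of 1.99 against WT replicate 2 and 4.45 against WT replicate 1. Txn1, the redox protein thioredoxin, was at 433 and 754 in WT and 1736 and 1673 in Q111 (1.58, SE 0.30, limma adjusted p = 0.012), and Npm1, nucleophosmin of the nucleolus, at 899 and 1219.5 in WT and 2321 and 2405 in Q111 (1.17, SE 0.18, limma adjusted p = 0.005). The nuclear import receptor gene Kpnb1 was at 458 and 951 in WT and 1706 and 1776 in Q111 and the translation factor gene Eif4a1 at 674 and 1493 in WT and 2439.7 and 2450.4 in Q111; neither was called without WT replicate 1. Npm1, Kpnb1, Eif4a1 and Igfbp3 lie on chromosome 11, which is taken up below.

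The largest losses in absolute level included those of Tnc, Serpine2, Ptn and Slc1a3, secreted or membrane proteins of radial glia and astrocytes. Serpine2, a protease inhibitor of the matrix, was at 3368 and 3180.2 in WT and 998 and 1002 in Q111 (-1.71, SE 0.12, limma adjusted p = 0.00012). Tnc, the matrix protein tenascin C, was at 3189 and 6157 in WT and 1522 and 1653 in Q111. The WT libraries differed from each other, and their separation from Q111 was required by the rule for names. Ptn, the growth factor pleiotrophin, was at 2845 and 1645 in WT and 1012 and 990.2 in Q111; without WT replicate 1 its log2 difference was -0.72 and not called. Epha4, an ephrin receptor, was at 404 and 89.5 in WT and 7.55 and 11.2 in Q111 (-4.23, SE 0.72, limma adjusted p = 0.008). Txnip, an inhibitor of thioredoxin, was at 326 and 67.8 in WT and 6.51 and 8.24 in Q111, a difference that was not called without WT replicate 1.

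Among genes of position along the neural axis, 10 of 21 tested Hox genes fell and none rose. The share called was 47.6%, all of it lower, beside 7.9% of all tested genes called lower and 16.6% called in either direction. Of the 10, 9 were also called without either WT library, and the median log2 difference was -0.69, against 0.019 over all genes. Hoxa5 was at 14.9 and 16.5 in WT and 0.176 and 0.156 in Q111 (-3.84, SE 0.66, limma adjusted p = 0.0082), Hoxb3 at 15.9 and 11.4 in WT and 0.054 and 0.085 in Q111 and Hoxa2 at 15.9 and 12.8 in WT and 1.11 and 0.992 in Q111. Hoxa3 was at 6.39 and 7.65 in WT and 0.068 and 0 in Q111. The Hox median was -0.79 against WT replicate 2 alone and -0.60 against WT replicate 1 alone. Among the 12 NPC libraries the Hox median, as a deviation from the mean of each gene, was lowest in Q111 at -1.28 and -1.24. Next came Q50 at -0.90 and -0.90, then WT at -0.46 and -0.45 and Q20 at -0.07 and 0.04. It was 0.81 and 1.09 in KO and highest in Q92 at 1.11 and 1.34. The order of these medians was not that of repeat length. Of 28 tested forebrain and midbrain genes, 4 rose and 3 fell (25%). Otx1 was at 0.228 and 0.123 in WT and 9.04 and 7.39 in Q111 and Otx2 at 0.455 and 0.245 in WT and 4.95 and 8.72 in Q111, both marking forebrain and midbrain, while the forebrain gene Lhx2 was lower, at 7.55 and 11.9 in WT and 2.31 and 1.66 in Q111.

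Of 29 tested astrocyte genes, 5 fell and 1 rose, a called share of 20.7% beside 16.6% of all genes. Of the 5 falls, 2 lie on chromosome 1, which is taken up below. The median was -0.57, and against WT replicate 1 alone it was -1.41 and against WT replicate 2 alone -0.31. Aldoc, a glycolytic aldolase of astrocytes and radial glia, was at 1257 and 1009.6 in WT and 102 and 97.4 in Q111 (-3.48, SE 0.17, limma adjusted p = 1.6e-05), and the WT libraries were close to each other. Glul, glutamine synthetase, was at 839 and 705 in WT and 137 and 221 in Q111 (-2.14, SE 0.35, limma adjusted p = 0.0064). The glutamate transporter genes Slc1a2 and Slc1a3 were at 532 and 123.5 in WT and 35.4 and 37.4 in Q111 and at 2741 and 1844 in WT and 962 and 986 in Q111; neither was called without WT replicate 1. Aqp4, the astrocyte water channel, was at 102 and 5.76 in WT and 2.80 and 2.92 in Q111, a difference carried by WT replicate 1 and not called (adjusted p = 0.14, limma). Aldh1l1, a folate enzyme of astrocytes, went the other way, at 70.3 and 33.9 in WT and 137 and 131 in Q111 (1.44, SE 0.37, limma adjusted p = 0.033).

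Of 31 tested progenitor and radial glia genes, 4 rose and 6 fell (32.3%, beside 16.6% of all tested genes), with a median of -0.59. The intermediate filament gene Vim was at 1188 and 1529.6 in WT and 2166 and 2164 in Q111, and the fatty acid binding protein gene Fabp5 at 236 and 355 in WT and 536 and 561 in Q111; neither was called without WT replicate 1. Prom1, the surface antigen CD133, was at 25.4 and 27.96 in WT and 47.6 and 47.1 in Q111 (0.81, SE 0.14, limma adjusted p = 0.0083). Nr2e1, the orphan receptor TLX of adult neural stem cells, was at 0.158 and 0.025 in WT and 4.32 and 4.96 in Q111, under 1 in both WT libraries. Bcan and Ttyh1 were lower, at 929 and 477 in WT and 233 and 228 in Q111 and at 677 and 127 in WT and 38.4 and 36.1 in Q111, and were not called without WT replicate 1 either, where the difference of Ttyh1 was -1.75 in place of -2.95. The progenitor genes Nes and Pax6 were not called, with Nes at 470 and 1105 in WT and 814 and 803 in Q111.

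Neuronal genes moved in both directions. Of 27 tested, 7 rose and 4 fell (40.7%, beside 16.6% of all tested genes), and the median was 0.00396. Also without either WT library, 3 of the rises and 3 of the falls were called. Of the 4 falls, 1 lies on chromosome 1, which is taken up below. Map2, a dendritic microtubule protein, was at 1593 and 1228 in WT and 732 and 714 in Q111 (-0.95, SE 0.15, limma adjusted p = 0.0053), and Dcx, a microtubule protein of young neurons, at 8.72 and 9.0 in WT and 1.18 and 2.52 in Q111. Stmn2, a tubulin-binding protein of axons, was at 0.175 and 0.356 in WT and 5.51 and 5.24 in Q111 (2.34, SE 0.16, limma adjusted p = 0.00011), and Gap43, of growth cones, at 90.3 and 192 in WT and 338 and 336 in Q111. Of 20 tested genes of the oligodendrocyte lineage, 4 rose and 2 fell (30%). The risers included Enpp6 at 0.123 and 0.307 in WT and 9.72 and 10.5 in Q111 and Ugt8a, a galactolipid synthesis enzyme, at 8.64 and 8.28 in WT and 29.8 and 42.7 in Q111. The myelin gene Mbp was at 3.26 and 1.68 in WT and 20.7 and 25.1 in Q111 (2.82, SE 0.25, limma adjusted p = 0.0003), whereas Bcas1 fell, at 208 and 223 in WT and 101 and 102 in Q111. Olig2, the lineage factor, differed between the Q111 libraries themselves, at 434 and 195 in WT and 217 and 644 in Q111, and was not called. No pluripotency gene of 13 tested was called. Of 19 tested fibroblast and mural cell genes, 7 fell and 1 rose (42.1%), beside the fibroblast markers given above. Of 6 tested genes of other germ layers and the neural crest 1 rose and 1 fell (33.3%). Of 4 tested endothelial, blood and microglia genes 1 fell (25%).

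In the Notch pathway, through which neighbouring cells keep each other undifferentiated, 10 of 28 tested genes fell and 2 rose, a called share of 42.9% beside 16.6% of all genes, with a median of -0.91, the lowest of the 44 lists. The ligand genes Dll1 and Jag1 were at 325 and 93.7 in WT and 46.4 and 43.8 in Q111 and at 154 and 85.5 in WT and 46.5 and 44.2 in Q111, the receptor gene Notch3 at 190.4 and 90.8 in WT and 58.02 and 60.1 in Q111, and Rbpj, the DNA-binding partner of the cleaved receptor, at 99.8 and 81.97 in WT and 54.96 and 34.2 in Q111. Hey1, a target, was at 72.2 and 31.6 in WT and 13.4 and 12.3 in Q111. The groups did not overlap at 19 of the 28 genes, beside 60.7% of all tested genes, so separation alone says little. In each of the 5 genes given here, both Q111 libraries were below both WT libraries, and WT replicate 1 was the highest. None of these 5 genes was called without WT replicate 1. Rbpj was also not called with edgeR (adjusted p = 0.0507), with no filter on low values (0.0524) or with a pseudocount of 5 (0.0503). The adjusted p of Notch3 lay between 0.052 and 0.0549 with a pseudocount of 5, with no filter, with a mean of at least 5 and with quantile or median-of-ratios scaling. The median was -1.10 against WT replicate 1 alone and -0.46 against WT replicate 2 alone, and 2 of the 10 falls were also called without either WT library.

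Of 27 tested genes of BMP signalling, 6 fell and 1 rose, and 25.9% were called. Bmp7, a ligand, was at 6.25 and 26.5 in WT and 0.257 and 0.099 in Q111 (-3.59, SE 0.53, limma adjusted p = 0.0043), and Fstl1, a secreted BMP antagonist, at 263 and 344 in WT and 84.1 and 40.1 in Q111 (-2.35, SE 0.30, limma adjusted p = 0.0021). Fst, which binds activin and BMP, was at 0 and 0.356 in WT and 3.51 and 3.19 in Q111, the single riser. In the EGF and FGF list 9 of 41 rose and 3 fell, 29.3% in all. The FGF receptor genes split: Fgfr1, on chromosome 8, rose from 104 and 132 to 232 and 223, Fgfr2 fell from 19.4 and 14.8 to 2.60 and 2.52, and Fgfr3 from 201 and 86.4 to 14.4 and 17.0. Their log2 differences were 0.95, -2.34 and -2.99. In the Wnt pathway 4 of 34 fell and 2 rose, and this share of 17.6% was close to the 16.6% of all genes. The secreted Wnt inhibitor gene Sfrp1 was at 16.8 and 17.8 in WT and 2.88 and 3.35 in Q111 and the R-spondin receptor gene Lgr5 at 74.2 and 56.6 in WT and 18.5 and 18.7 in Q111, while the nuclear effector gene Lef1 was at 0.123 and 0.27 in WT and 4.45 and 4.10 in Q111. In the Hedgehog pathway 4 of 16 fell and 1 rose, 31.2% in all. Of the 4 falls, 2 lie on chromosome 1, and the riser lies on chromosome 8 or 11. The co-receptor gene Boc was at 92.2 and 44.5 in WT and 14.3 and 13.5 in Q111. The effector gene Gli2 was at 6.83 and 6.64 in WT and 2.52 and 2.99 in Q111.

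**Figure D2:**
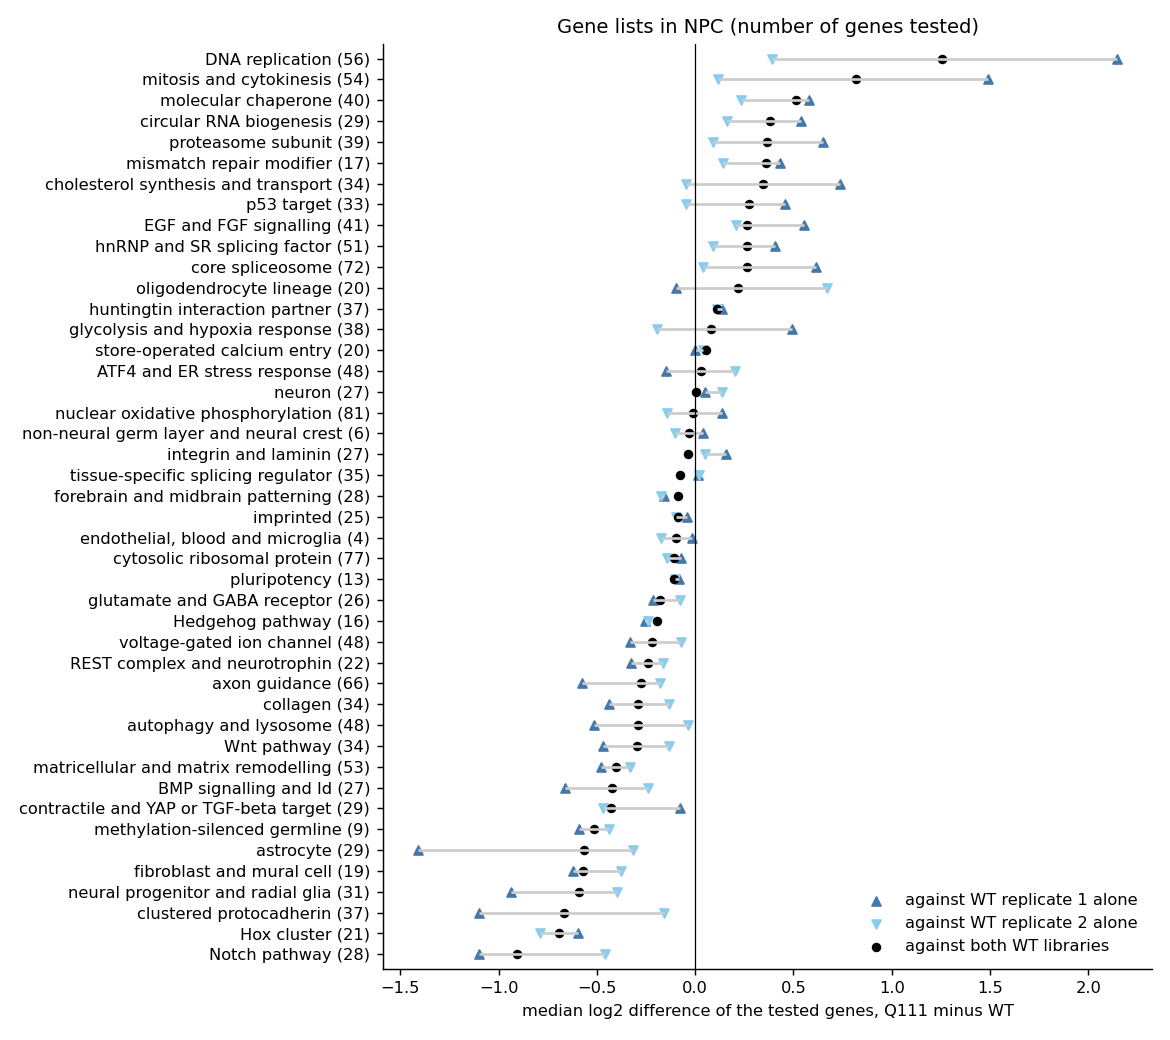
Median log2 difference, Q111 minus WT, of the tested genes of 44 gene lists in NPC (number of genes in brackets). Black points use both WT libraries, dark triangles WT replicate 1 alone and light triangles WT replicate 2 alone; the lists of DNA replication, mitosis, astrocyte and protocadherin genes have the triangles far apart, and the Hox list has them close.

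Matrix genes moved in both directions. Among 34 tested collagen genes 9 rose and 6 fell (44.1%, beside 16.6% of all tested genes), 8 and 4 also without either WT library. Col18a1, of basement membranes, was at 4.62 and 9.24 in WT and 102 and 100.04 in Q111 (3.75, SE 0.35, limma adjusted p = 0.00038), and the fibril-forming Col5a2 at 50.1 and 38.05 in WT and 179 and 181 in Q111 (2.02, SE 0.21, limma adjusted p = 0.00076) and Col11a1 at 51.4 and 57.4 in WT and 131 and 126 in Q111. Col4a5, the X-linked neighbour of Col4a6, was at 69.8 and 39.3 in WT and 158 and 166 in Q111. Col3a1 fell, at 23.96 and 21.8 in WT and 1.31 and 1.28 in Q111 (-3.38, SE 0.16, limma adjusted p = 1.6e-05). It lies beside Col5a2 on chromosome 1, and the 2 genes went in opposite directions. Of 53 matricellular and remodelling genes, 17 fell and 8 rose (47.2%), 9 and 3 without either WT library. Thbs2, thrombospondin 2, was at 3.14 and 2.32 in WT and 29.04 and 29.05 in Q111 (3.02, SE 0.24, limma adjusted p = 0.00018), whereas Sparc was at 467 and 316 in WT and 213 and 178 in Q111, not called without WT replicate 1. Of 27 integrin and laminin genes 3 rose and 3 fell (22.2%). Itgb1, the beta chain of most matrix receptors, was at 864 and 1032 in WT and 1503 and 1498 in Q111. Itga8 was at 0.946 and 3.26 in WT and 32.8 and 30.01 in Q111. The laminin chain gene Lama1 was at 14.03 and 11.9 in WT and 2.40 and 2.45 in Q111. Of 29 contractile and YAP target genes 6 fell and 1 rose (24.1%). The focal adhesion gene Vcl was among the falls, at 166 and 173 in WT and 93.3 and 95.5 in Q111.

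Of 26 tested genes of glutamate and GABA receptors, 6 rose and 8 fell, a called share of 53.8% beside 16.6% of all genes, with no test of the list; 6 of the rises and 4 of the falls were also called without either WT library. Grm3, a metabotropic glutamate receptor of glia, was at 179.8 and 107 in WT and 16.2 and 15.3 in Q111 (-3.06, SE 0.26, limma adjusted p = 0.00026). Gabra2, a GABA receptor subunit, was at 6.50 and 7.74 in WT and 41.7 and 36.3 in Q111 (2.30, SE 0.22, limma adjusted p = 0.00048). Grin2a, an NMDA receptor subunit, was at 0.14 and 0.295 in WT and 7.17 and 7.90 in Q111, near background in WT. The AMPA receptor genes Gria3 and Gria4 went in opposite directions, from 52.8 and 47.7 to 80.2 and 84.6 and from 133 and 130 to 77.9 and 74.3. Of 48 voltage-gated channel genes, 5 rose and 4 fell (18.75%). Of 66 axon guidance genes, 16 fell and 6 rose (33.3%). Sema3c, a secreted semaphorin, was at 0.385 and 0.515 in WT and 13.4 and 13.00 in Q111. Of 37 clustered protocadherin genes, 5 fell and none rose (13.5%), and none of the 5 was called without either WT library. The median was -1.10 against WT replicate 1 and -0.16 against WT replicate 2.

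Among imprinted genes, expressed from the copy of 1 parent, 7 of 25 rose and 6 fell, 52% in all, beside 8.74% of all tested genes called higher and 7.9% lower. Igf2r, which clears insulin-like growth factor 2, was at 179 and 333 in WT and 23.9 and 23.9 in Q111 (-3.30, SE 0.29, limma adjusted p = 0.0003). Snrpn, a spliceosome protein gene, was at 37.9 and 26.3 in WT and 77.8 and 82.4 in Q111 (1.32, SE 0.16, limma adjusted p = 0.0019), and Nnat, neuronatin, at 420.1 and 164 in WT and 74.5 and 79.8 in Q111. Of 9 tested germ line genes of the kind silenced by DNA methylation, 5 fell and 2 rose (77.8%), with Xlr3c at 2.77 and 1.91 in WT and 0.054 and 0.028 in Q111. Xlr3c has near-identical copies on the X chromosome, so its single value is uncertain.

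The medians of growth genes differed with the WT library used. Of 56 tested DNA replication genes, 7 rose and none fell (12.5%), beside 16.6% of all tested genes called and 8.74% called higher. The median of these genes was 1.26. It was 2.15 against WT replicate 1 alone and 0.39 against WT replicate 2 alone. Of the 7 risers, 6 lie on chromosome 8 or 11, and 2 were called without either WT library. Rpa1, which coats single-stranded DNA, was at 147 and 340.5 in WT and 613 and 624 in Q111, and Orc6, of the origin recognition complex, at 32.1 and 69.8 in WT and 141 and 138 in Q111. No gene of the mitosis list was called among 54 tested. Its most abundant genes were Top2a, at 569 and 1459 in WT and 2164 and 2199 in Q111 (adjusted p = 0.11, limma), and Mki67, at 498 and 1424 in WT and 1529.5 and 1689.7 in Q111 (adjusted p = 0.28). In both, WT replicate 2 and the Q111 libraries lay closer to each other than to WT replicate 1. Of 33 tested genes of the p53 list, which held Trp53 itself, 1 rose and 3 fell (12.1%, below the 16.6% of all tested genes). The riser was Trp53, on chromosome 11, at 52.02 and 69.6 in WT and 141 and 127 in Q111. No other gene of the list was called higher. Cdkn2a was among the falls, at 20.4 and 41.5 in WT and 9.33 and 5.71 in Q111.

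In protein folding and turnover, the shares called were near or below the 16.6% of all genes. Of 40 chaperone genes 7 rose and none fell (17.5%), and of 39 proteasome genes 7 rose and none fell (17.95%), beside 8.74% of all genes called higher; in each list 5 of the 7 lie on chromosome 8 or 11. The chaperonin gene Cct4 was at 445 and 509 in WT and 948 and 979 in Q111 (1.01, SE 0.13, limma adjusted p = 0.0019), Hspa4 at 419.5 and 684 in WT and 1169.7 and 1195 in Q111, and the proteasome gene Psmd12 at 96.5 and 136 in WT and 253 and 293 in Q111, all on chromosome 11. In the list of stress response genes 5 of 48 rose and 1 fell (12.5%), with the calcium-binding chaperone gene Calr at 705 and 892 in WT and 1512 and 1565 in Q111, on chromosome 8. Of 77 cytosolic ribosomal protein genes, 3 rose, all on chromosome 11, and 3 fell, all on chromosome 1: Rps27a was at 418 and 438 in WT and 606 and 626 in Q111 and Rpl7 at 2047 and 2006 in WT and 1339 and 1397 in Q111.

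Splicing is the subject of the series title. Of 72 core spliceosome genes 8 rose and 2 fell (13.9%, beside 16.6% of all genes), and of 51 hnRNP and SR protein genes 2 rose and 2 fell (7.84%). Prpf8, at the centre of the spliceosome, was at 678 and 739 in WT and 1066 and 1151 in Q111 (0.65, SE 0.12, limma adjusted p = 0.01) and Eftud2, its partner, at 124 and 264 in WT and 484 and 498 in Q111, both on chromosome 11; 5 of the 8 risers lie on chromosome 8 or 11. Sf3b1, which holds the branch point, fell, at 1259 and 1176 in WT and 735 and 738 in Q111 (-0.72, SE 0.11, limma adjusted p = 0.0056), and lies on chromosome 1, as does the SR protein kinase gene Clk1, at 259 and 145 in WT and 85.95 and 84.1 in Q111. Hnrnph1 was at 459 and 481 in WT and 696 and 689.8 in Q111. Of 35 tissue-specific splicing regulators 4 rose and 4 fell (22.9%), the strongest being Rbm20 and Mbnl3. Rbm20 was at 15.1 and 19.04 in WT and 3.93 and 4.01 in Q111 (-1.85, SE 0.19, limma adjusted p = 0.00056). Mbnl3 was at 0.298 and 0.479 in WT and 5.86 and 5.07 in Q111 (2.22, SE 0.18, limma adjusted p = 0.0002). Of 29 genes tied to the making or decay of circular RNA 6 rose and 3 fell (31%, beside 16.6% of all genes). Prpf8, Sf3b1 and Rbm20, given above, were among them, and 3 of the 6 risers lie on chromosome 8 or 11. Adar, of the same list, was at 64.7 and 64.5 in WT and 55.6 and 50.8 in Q111 and was not called.

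Among 37 huntingtin partners 3 rose and 3 fell, a called share of 16.2%, close to the 16.6% of all tested genes. Kif5a, a kinesin of axonal transport, was at 21.8 and 17.3 in WT and 2.82 and 3.44 in Q111 (-2.31, SE 0.30, limma adjusted p = 0.0023), Ahi1 at 135 and 126 in WT and 77.3 and 79.3 in Q111, and Git1, on chromosome 11, at 44.5 and 61.2 in WT and 119 and 102 in Q111. Of 17 mismatch repair and repeat instability genes none rose and 1 fell (5.88%). Msh3, known for its part in the growth of CAG repeats, was at 45.9 and 56.3 in WT and 60.5 and 64.1 in Q111 (log2 difference 0.29, adjusted p = 0.20, limma). Of 22 genes of the REST complex and neurotrophins 3 rose and 4 fell (31.8%). Bdnf was at 12.6 and 6.04 in WT and 7.64 and 8.25 in Q111, overlapping. Of 20 genes of store-operated calcium entry 3 rose and 1 fell (20%). The calcium sensor gene Stim2 was at 97.6 and 192 in WT and 324 and 313 in Q111. The calcium release channel gene Itpr2 was at 204 and 153 in WT and 65.8 and 69.2 in Q111. Of 38 glycolysis and hypoxia genes 7 fell and 1 rose (21.05%). Ldhb was at 163 and 119.5 in WT and 69.5 and 70.1 in Q111. Pfkp, a phosphofructokinase, was the riser, at 7.92 and 10.2 in WT and 60.1 and 60.3 in Q111 (2.61, SE 0.27, limma adjusted p = 0.0007). Of 81 nuclear genes of oxidative phosphorylation 3 rose and 4 fell (8.64%). Of 34 cholesterol genes 2 rose and 2 fell (11.8%), and of 48 autophagy and lysosome genes 2 rose and 1 fell (6.25%). These 3 shares were below that of all genes.

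Where a gene lies on the genome went with its direction on 3 chromosomes. On chromosome 8, 189 of 708 tested genes rose and 13 fell, with a median log2 difference of 0.45. On chromosome 11, 284 of 1069 rose and 35 fell, with a median of 0.43. On chromosome 1, 35 of 776 rose and 173 fell, with a median of -0.34. On the X chromosome 63 of 462 genes rose (13.6%) and 32 fell (6.93%), with a median of 0.05; without either WT library 42 of the rises and 16 of the falls were called. The medians of the other 16 autosomes lay between -0.0959 and 0.109. Chromosomes 8 and 11 held 41% of all genes called higher, beside 13.5% of the genes tested, and chromosome 1 held 16.6% of those called lower, beside 5.88%. Positions are from GENCODE M21 on GRCm38.

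**Figure D3:**
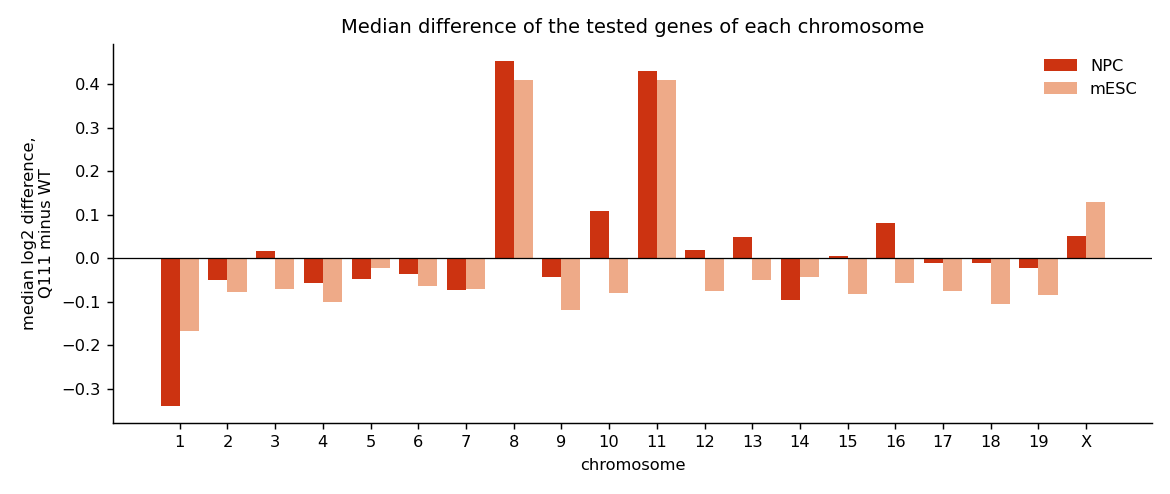
Median log2 difference, Q111 minus WT, of the tested genes of each chromosome in NPC (dark bars) and mESC (light bars). Chromosomes 8 and 11 stand at 0.45 and 0.43 in NPC and at 0.41 and 0.41 in mESC, and chromosome 1 at -0.34 and -0.17, while the medians of other autosomes stay near 0.

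The shift ran along the whole of each chromosome. Split into 4 stretches of equal length, chromosome 8 had medians from 0.365 to 0.525, chromosome 11 from 0.371 to 0.531 and chromosome 1 from -0.395 to -0.288. It was about as large against each WT library alone: 0.42 and 0.48 on chromosome 8, 0.38 and 0.49 on chromosome 11, and -0.34 and -0.35 on chromosome 1. The other lines, set against the same WT libraries, had shifts on some of these chromosomes. Chromosome 8 stood at 0.45 in KO, 0.28 in Q20, 0.39 in Q50 and 0.06 in Q92. Chromosome 11 stood at 0.27 in Q20 and between -0.03 and 0.04 in KO, Q50 and Q92. Chromosome 1 stood at -0.38 in Q20 and -0.34 in Q92, but at 0.125 in KO and 0.11 in Q50. DNA copy number was not measured, and its part in these shifts was not tested. With the genes of chromosomes 1, 8 and 11 left out of the count, 1468 of 10653 genes were called, 646 higher and 822 lower, more falls than rises. The balance of directions also differed with the test: over all genes edgeR on the recovered reads called 961 higher and 1151 lower.

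**Figure D4:**
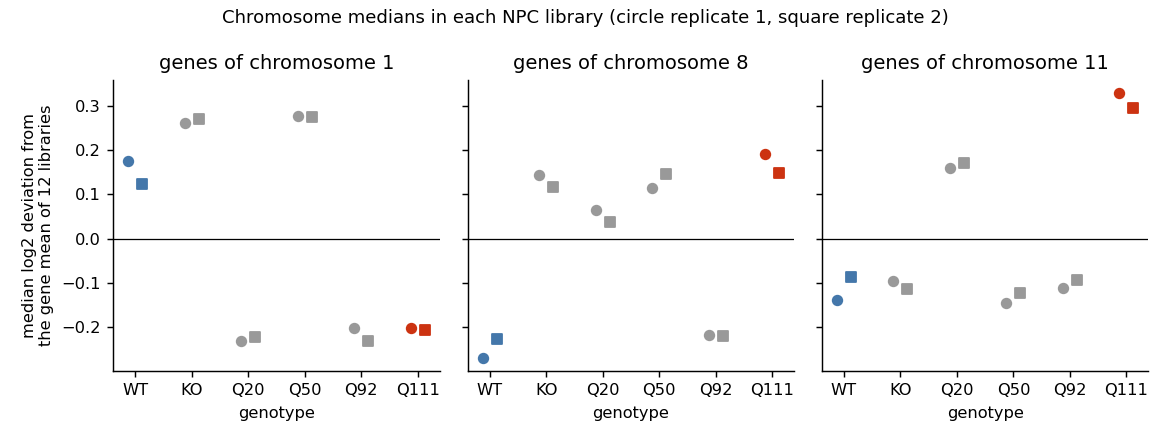
Median log2 deviation of the genes of chromosomes 1, 8 and 11 from their mean over the 12 NPC libraries, for each library (circles replicate 1, squares replicate 2; WT blue, Q111 red, other genotypes grey). Replicates lie close together, Q111 is highest on chromosome 11 at 0.33 and 0.30, and WT is low on chromosome 8 at -0.27 and -0.23.

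The same genotypes were set against each other in mESC, though the labels do not say from which line the WT NPC came. There 44 of 13916 genes were called (0.316%), of which 37 were higher (0.266%) and 7 lower (0.0503%). Unadjusted, 1554 genes had a p under 0.05. Same-numbered mESC libraries deviated together, and with the replicate number as a block 1032 genes were called, 604 higher and 428 lower, among them all 44. The largest rises were Acta2, smooth muscle actin, from 2.13 and 3.03 CPM in WT to 65.9 and 37.7 in Q111, and Thbs1, thrombospondin 1, from 9.56 and 13.7 to 145 and 174. The largest falls were Ankrd44, from 19.04 and 24.3 to 3.19 and 2.97, and Kank4, from 24.7 and 31.1 to 5.56 and 5.71. The mESC were grown on fibroblast feeders, and of the fibroblast and mural cell list 2 of 19 genes rose in mESC Q111, Col1a1 and Col1a2; the part of feeder RNA was not tested. Across the 12321 genes tested in both cell types, the NPC and mESC differences correlated with a Pearson r of 0.129 and a Spearman rho of 0.168. Without chromosomes 1, 8 and 11 these were 0.0654 and 0.0868, over 9935 genes, which are not independent of each other. The genes called in both numbered 12, of which 9 went the same way; Axl, Ccdc80 and Xlr3c, lower in NPC, were higher in mESC. With the block in mESC 277 genes were called in both, 231 of them in the same direction.

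The Q111 difference in NPC minus that in mESC was tested in 1 model, and 238 of 12321 genes were called (1.93%), 105 with the higher difference in NPC (0.852%) and 133 with the lower (1.08%). The smallest p in the upward direction belonged to Col18a1, Grin2a, Pak1, Kdm5d and Stmn2. Col18a1 was at 434 and 437 CPM in WT and 287 and 352 in Q111 mESC. The mESC and NPC tables were scaled separately, so levels are not compared between them. Stmn2 was at 310 and 376 in WT and 297 and 267 in Q111 mESC. Pak1, a kinase of the actin skeleton, was at 5.64 and 7.27 in WT and 56.2 and 54.02 in Q111 in NPC and at 43.0 and 31.9 against 35.6 and 42.2 in mESC. The smallest p in the downward direction belonged to Ccdc80, St6gal2, Xlr3c, Trap1a and Csmd2. Grin2a and Csmd2 were under 1 CPM in both mESC genotypes, so their gap mostly repeats the NPC difference. Ccdc80, a secreted matrix protein, was at 78.2 and 87.1 in WT and 11.4 and 12.2 in Q111 in NPC and at 0 and 0.089 against 2.12 and 2.27 in mESC. Trap1a was at 188 and 198 in WT and 165 and 176 in Q111 mESC, so both genotypes expressed it there. Fitted on the 8 libraries of both genotypes alone, 17 genes were called. With the replicate block 1080 were called, 539 with the higher and 541 with the lower difference in NPC.

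**Figure D5:**
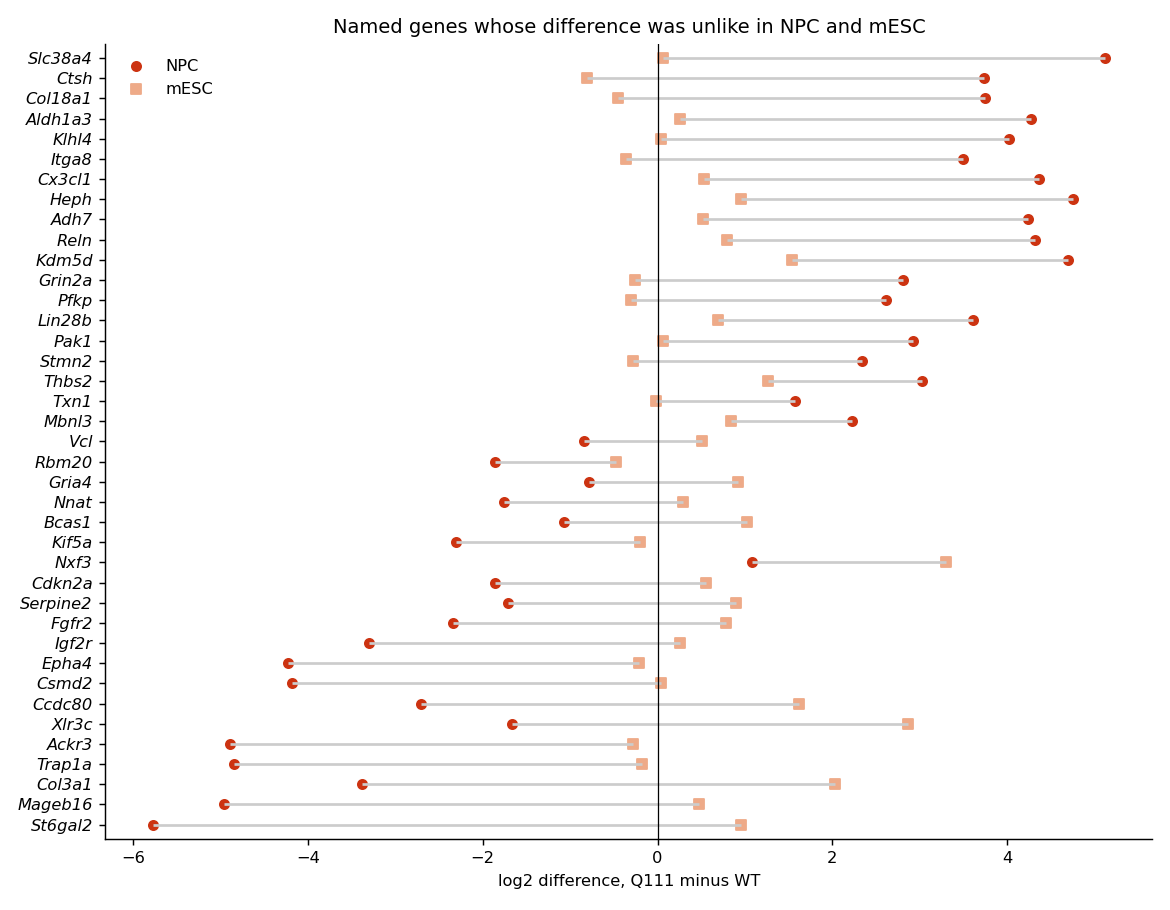
Log2 difference, Q111 minus WT, in NPC (circles) and mESC (squares) for the named genes whose differences were unlike in the 2 cell types, ordered by the size of the gap. The mESC squares lie nearer 0 than the NPC circles for most genes, while for St6gal2 the gap is -6.72 and for Slc38a4 5.06. The genes were chosen mainly for their NPC differences, which favours squares nearer 0.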

How the data were processed

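Total RNA of 4 NPC libraries was compared, 2 of Q111 and 2 of WT, with the other 8 NPC libraries and the 12 mESC libraries as context. Per the submitters' processing notes, CASAVA 1.8, STAR and the build GRCm38.p6 were used; how reads were counted, and whether by strand, is not given in the sources used here. The authors deposited 1 table per cell type of a normalised CPM signal. In every column 100% of the values were whole multiples of 1 step (tolerance 0.001), which gave back the counted reads, and TMM factors recomputed from them matched the scaling of the columns. Replicate numbers come from the labels, which tie them to no batch. Replicate differences correlated at 0.25 to 0.547 over all genotype pairs in mESC, where blocked values are printed. In NPC they correlated at -0.0449 for WT and Q111 and at 0.467 for WT and KO, the highest of the NPC pairs. Depth per library is in the report and carries counting error besides the spread between replicates.

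From the deposited signal, log2(value + 1) was fitted with limma 3.58.1 in R 4.3.3, with a mean for each of the 6 genotypes of a cell type and moderated, trended variances; tests were two-sided and adjusted over all tested genes. The test for normalised values was kept, and edgeR 4.0.16 on the recovered reads was an alternative. Other alternatives were pseudocounts of 0.1 and 5, no filter or a mean of at least 5, quantile and median-of-ratios scaling, a replicate block, only the libraries of both groups, and each replicate left out. Leaving out chromosomes 1, 8 and 11 was chosen after seeing the data.

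On simulated data with 13206 genes, 200 of them changed, the NPC comparison recovered 4 of 100 genes changed 2-fold and 72 of 100 changed 4-fold, with 8 calls among unchanged genes. The simulation gave a gene the same spread in every genotype. In the data the WT pair stood further apart, with an SD of 0.869 over genes against 0.486 in Q111. The simulated counts therefore do not measure how many of the real calls are false.

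The comparison and the 44 gene lists were chosen with earlier results of these data known. Among called genes whose groups did not overlap and whose higher group averaged at least 5, the rule for names took the 10 largest rises and falls, the 5 of each with the smallest p and the 5 of each with the largest difference in level; per list, it took up to 4 called members in each direction with the highest mean, or 2 tested members where fewer than 2 were called. In mESC it took 2 rises and 2 falls, for the difference between cell types 5 of each, and Htt throughout. Of the genes so selected, a part is printed and 1 is not reported here; Hoxa3, Hey1, Aqp4, Olig2, Nes, Pax6, Adar, Msh3, Bdnf, Ddx3y, Uty, the genes of the closing observations and those collected as expressed in 1 of the 2 genotypes compared were chosen after their values were seen.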

Additional observations from a re-analysis of the deposited data

Results flagged for a closer look

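For 39 of the named genes the Q111 difference in NPC was unlike that in mESC by the test of the gap itself (limma, adjusted p under 0.05). Over all 12321 genes tested in both cell types, 238 (1.93%) were called. Most named genes were chosen for large or called differences in NPC, and some for the p of this gap. The choice favours a gap, so the number among named genes is a description. The values below are the log2 difference in NPC minus that in mESC, and a positive value means more of a rise, or less of a fall, in NPC.

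Among the genes near background in NPC of WT or Q111 and expressed in the other, the gap was 4.54 for Ctsh, 3.98 for Klhl4, 3.796 for Heph, 3.71 for Adh7, 3.16 for Kdm5d and 2.91 for Lin28b. It was -6.72 for St6gal2, -5.43 for Mageb16, -4.67 for Trap1a, -4.61 for Ackr3 and -4.21 for Csmd2. Mageb16 was at 41.1 and 9.51 CPM in WT and 17.1 and 45.9 in Q111 mESC, so the replicates of each mESC genotype lay far apart. Ctsh was at 14.4 and 3.01 in WT and 4.02 and 3.05 in Q111 mESC. Klhl4 was at 0.132 and 0.124 in WT and 0.32 and 0.026 in Q111 mESC, and Csmd2 at 0.33 and 0.673 against 0.701 and 0.371. Both were under 1 CPM there, so their gap mostly repeats the NPC difference. Heph and Adh7 were under 1 CPM in WT mESC, whereas Lin28b was at 40.1 and 50.4.

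Secreted, matrix and adhesion genes had gaps of 4.20 for Col18a1, 3.85 for Itga8, 3.83 for Cx3cl1, 3.52 for Reln and 1.76 for Thbs2. In the other direction they were -5.41 for Col3a1, -4.32 for Ccdc80, -4.02 for Epha4, -2.61 for Serpine2 and -1.35 for Vcl. Col3a1 was at 0 and 0.142 CPM in WT and 2.32 and 4.75 in Q111 mESC, which were grown on fibroblast feeders; the part of feeder RNA was not tested.

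Among receptors, signalling and transport genes the gap was 5.06 for Slc38a4, 3.07 for Grin2a and 2.86 for Pak1, and -3.55 for Igf2r, -3.12 for Fgfr2, -2.11 for Kif5a and -1.71 for Gria4. Grin2a was at 0.725 and 0.797 CPM in WT and 0.442 and 0.5 in Q111 mESC, so its gap mostly repeats the NPC difference. Metabolic and redox genes had gaps of 4.02 for Aldh1a3, 2.92 for Pfkp and 1.60 for Txn1. The neuronal and glial genes Stmn2, Nnat and Bcas1 had gaps of 2.61, -2.04 and -2.10, the splicing regulators Mbnl3 and Rbm20 of 1.38 and -1.38, and Xlr3c, Cdkn2a and Nxf3 of -4.54, -2.41 and -2.22.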

How the results depend on the processing

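The 2197 NPC calls depended on the spread borrowed from the other lines: 0 genes were called when the fit held just the 4 libraries compared, and the count ran from 554 to 5085 over the fits without 1 replicate, in which the lone remaining library is assumed to vary like the other groups. None of the 2197 changed sign under any of the 14 alternatives, and edgeR on the recovered reads called 2112, of which 1943 were shared. The 44 calls in mESC became 26 and 27 with pseudocounts of 0.1 and 5, 17 with a mean of at least 5, 24 with quantile scaling, 0 when fitted on the 4 libraries alone, 17 with edgeR and 1 to 7 without 1 replicate. The 238 calls of the difference between cell types became 499 with no filter on low values, 17 with the 8 libraries of these genotypes alone and 114 to 1241 without 1 replicate. Htt, at -0.12, ran from -0.303 without WT replicate 1 to 0.0605 without WT replicate 2, the opposite sign, and stayed uncalled.

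The replicate numbers are shared between genotypes, but the labels do not tie them to a batch. The replicate differences of WT and Q111 correlated at -0.0449 in NPC and 0.429 in mESC. Over all genotype pairs in NPC the correlation ran from -0.0495 for Q20 and Q111 to 0.467 for WT and KO. In KO, as in WT, replicate 1 was lower in DNA replication genes. The KO medians were -0.54 and 0.58 as deviations from the mean of each gene, and the WT medians -1.32 and 0.49. With a replicate block the count was 2408 in NPC, 1032 in mESC and 1080 for the difference between cell types.

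No gene of the 124 named and called in NPC reversed under any alternative. Of uncalled genes, Nes, Olig2, Bdnf, Uty and Spcs3 changed sign. Over the fits without 1 replicate Nes ran from -0.45 to 0.78, Olig2 from -0.42 to 1.14, Bdnf from -0.60 to 0.34, Uty from -0.13 to 0.65 and Spcs3 from -2.21 to 1.48; Spcs3 was at 0.54 with edgeR and 0.78 with edgeR and the replicate block. Calls were lost for 30 without WT replicate 1, 2 without WT replicate 2, 54 without Q111 replicate 1 and 49 without Q111 replicate 2. The calls lost without WT replicate 1 were those of Gm27029, Txnip, Slc1a2, Slc1a3, Vim, Fabp5, Ttyh1, Bcan, Gap43, Bcas1, Dll1, Jag1, Notch3, Rbpj, Fgfr1, Gli2, Sparc, Ptn, Kpnb1, Eif4a1, Rpa1, Orc6, Hspa4, Psmd12, Eftud2, Stim2, Trp53, Rpl7, Rps27a and Hey1, and those lost without WT replicate 2 were those of Gm27029 and Aldh1l1. Mki67, Top2a, Pax6, Aqp4 and Msh3 were called without WT replicate 2. With 1 or more of the other settings that keep all 12 libraries, calls were lost for Gm27029, Aldh1l1, Notch3, Rbpj, Ptn, Eif4a1, Hey1 and Nxf3; the replicate block alone lost that of Rbpj (adjusted p = 0.0529). The list medians moved by more than the replicate spread for 23 of 44 lists without WT replicate 1 and 27 without WT replicate 2. Levels near background rest on few reads: Trap1a had 3 and 0 reads in Q111.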

Other observations

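In mESC, 15 of the 37 genes called higher in Q111 lie on the X chromosome, which held 519 of the 13916 genes tested, and none of the 7 lower calls does. With the replicate block 64 of 604 higher and 12 of 428 lower calls were on the X. Among them were Nxf3, an RNA export factor gene, at 3.26 and 2.51 CPM in WT and 37.3 and 36.8 in Q111, and Mmgt1, at 5.49 and 3.95 in WT and 51.9 and 44.1 in Q111. Rhox5, a homeobox gene of placenta and germ line, was at 40.0 and 31.5 in WT and 115 and 95.1 in Q111. The X-linked Xlr5a, Xlr5b and Xlr5c were also higher, but these are near-identical copies and their single values are uncertain. Nxf3 was higher in Q111 NPC too, at 0 and 0.209 in WT and 1.49 and 1.16 in Q111, whereas Xlr3c was lower there.

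Spcs3, a signal peptidase subunit gene on chromosome 8, was at 24.3 and 16.3 CPM in WT and 286 and 246 in Q111 mESC. In NPC it was at 105 and 139 in WT and 25.3 and 338 in Q111, so the Q111 replicates stood on both sides of WT.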
